A study of Mus musculus with 4 samples.

Results

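The 10 genes described here build or control the contacts between epithelial cells in the mouse: the claudins Cldn3, Cldn4, Cldn6 and Cldn7 and the occludin gene Ocln of the tight junction, the E-cadherin gene Cdh1 of the adherens junction, the desmoplakin gene Dsp of the desmosome, the adhesion gene Epcam, and the regulators Esrp1 and Grhl2. They were chosen by name, with earlier results of these data known. All 10 were found by Ensembl identifier among the 27597 genes listed in the 3 deposited tables. Mouse embryonic fibroblasts of strain OGXICR, labelled age D13.5, were grown from skin after the epidermis had been taken off. They were infected, with a doxycycline-inducible lentiviral system, with empty vector, with SOX2, KLF4 and c-MYC (SKM), with OCT4 in addition (OSKM), or with GATA3 in addition (G3SKM). The sources used here give neither the time of collection or of doxycycline treatment nor the share of cells that carried each virus. Each of the 4 groups has 1 deposited value per gene, which stands for 2 replicates, so no spread between samples could be computed and no p-value is given. The 6 comparisons share groups with each other, and their counts are not independent.

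Tight junctions seal the space between neighbouring epithelial cells and are built from claudins and occludin, which span the membrane and bind scaffold proteins inside the cell. Adherens junctions hold cells together through E-cadherin, which is tied to actin by catenins, and desmosomes tie keratin filaments to the membrane through desmoplakin. Fibroblasts lack most of these proteins, and the switch from a mesenchymal to an epithelial state is a known early step of reprogramming with OCT4, SOX2, KLF4 and c-MYC. ESRP1 directs epithelial splicing of many transcripts, GRHL2 is a transcription factor that is known to activate Cdh1 and claudin genes, and repressors of the SNAIL and ZEB families bind E2-box motifs in promoters of epithelial genes.

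The promoters of Cldn4, Epcam and Cldn3 are shown for the letters named in that background. Each is the window of 250 bases before the annotated start, read 5′ to 3′ on the gene's strand from RefSeq sequence of build GRCm38.p6. Capitals mark the E2-box (CAGGTG or CACCTG on the printed strand) in Cldn4 and Epcam, and CACCC, a core of the sites bound by KLF factors, in Cldn3. Cldn4 lies at chr5:134946935-134947184 on the minus strand, Epcam at chr17:87635729-87635978 on the plus strand, and Cldn3 at chr5:134985964-134986213 on the plus strand.
Cldn4: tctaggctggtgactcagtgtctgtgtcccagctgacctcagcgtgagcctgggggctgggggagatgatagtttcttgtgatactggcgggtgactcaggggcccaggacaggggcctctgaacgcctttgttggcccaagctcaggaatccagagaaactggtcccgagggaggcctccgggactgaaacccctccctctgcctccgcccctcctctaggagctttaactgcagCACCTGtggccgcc
Epcam: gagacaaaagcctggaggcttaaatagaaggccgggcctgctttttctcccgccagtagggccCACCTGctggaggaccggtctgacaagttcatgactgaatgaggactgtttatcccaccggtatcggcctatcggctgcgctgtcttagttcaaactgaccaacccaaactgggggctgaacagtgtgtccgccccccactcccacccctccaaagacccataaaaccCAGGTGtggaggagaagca
Cldn3: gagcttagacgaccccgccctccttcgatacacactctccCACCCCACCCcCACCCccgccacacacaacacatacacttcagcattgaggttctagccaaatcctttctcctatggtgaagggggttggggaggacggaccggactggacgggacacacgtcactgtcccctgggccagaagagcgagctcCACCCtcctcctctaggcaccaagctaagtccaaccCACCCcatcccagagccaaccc
The Cldn4 window held 1 E2-box, its first letter at position -14 from the start, and the Epcam window held 2, at -187 and -19. RefSeq windows matched 7 of the 10 genes, with 9 annotated starts between them. Cdh1, Esrp1 and Grhl2 had no entry. An E2-box on either strand stood in 5 of the 9 windows (Cldn4, Cldn6, Epcam, and 1 start each of Cldn7 and Ocln), against 17.2% of the 32851 windows of the same length in the whole table. Windows with 2 or more made up 2.06% of the table and included those of Epcam and of 1 start each of Cldn7 and Ocln. The CACCC letters, or GGGTG on the other strand, stood in 5 of the 9 windows against 52% of all windows, and the Cldn3 window held 5 copies. Windows with 2 or more copies made up 21.1% of the table. The letters AACNGGTT of the grainyhead family (1.79% of all windows), ATGCAAAT of the octamer (1.6%) and AGATAA of the GATA family (9.99%), each searched on both strands, were in none of the 9 windows, which says only that these letters are not there. No binding was measured, and a match is a description of the letters alone.

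The deposited RPKM (read numbers scaled to gene length and sequencing depth) divide by the whole span of a gene with its introns, so the 4 values of 1 gene can be set beside each other but values of different genes cannot. For comparisons between genes the values were put on a scale of exon length, called exon-length RPKM below. Whole reads were recovered from the step size of the values, and gave estimated depths of 111000000 reads for empty vector, 54000000 for SKM, 74700000 for OSKM and 102000000 for G3SKM. A fold is the ratio of 2 deposited RPKM values, and the interval after it is the 95% Clopper-Pearson interval of the recovered reads, which covers counting error only. Recovered reads lay within 0.05 of whole numbers for Cldn7, Ocln, Cdh1, Esrp1 and Grhl2 and are approximate for the other 5 genes. Reads scaled to depth alone are given as RPM, the deposited RPKM times the gene span. The call of higher or lower asked for a difference of at least 2-fold in RPM + 0.1 and for 1 RPM in 1 of the groups compared.

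The labels were checked on the delivered genes. Sox2 was at a deposited RPKM of 0.260 with empty vector and at 187, 110 and 70.7 in SKM, OSKM and G3SKM. The OCT4 gene Pou5f1 was highest in OSKM (0, 0.297, 3.69 and 0.212, with empty vector first), and Gata3 was highest in G3SKM (0.0639, 0.0444, 0.0836 and 0.571). Klf4 was above empty vector in all 3 factor groups (6.26, 19.3, 13.9 and 8.55), whereas Myc was below it in all 3 (16.0, 11.9, 10.5 and 6.31). The Myc values thus do not show the delivered c-MYC, and SKM, OSKM and G3SKM stand below for the libraries so labelled. All 10 fibroblast markers examined stayed at 1 exon-length RPKM or more in every group, and their summed level was 2369 with empty vector, 1693 with SKM, 963 with OSKM and 960 with G3SKM. Not every marker followed the sum. In the same order Dcn was at 1.71, 2.94, 8.01 and 3.62, Dpt at 1.85, 1.89, 1.16 and 2.49, and Col1a1 at 851, 903, 368 and 426. The other markers were below empty vector in every factor group. In these bulk samples, fewer cells of a type and less RNA per cell cannot be told apart. The SKM library stands apart by base composition: the Spearman correlation across genes of the log2 ratio with transcript GC content was 0.453 when SKM was set against empty vector. It was -0.684 and -0.704 when OSKM and G3SKM were set against SKM, and between -0.0509 and 0.03 for the 3 comparisons without SKM. Some log2 ratios that rest on SKM are therefore also given with that trend removed below. Folds and other values that rest on SKM are not adjusted for it.

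Against empty vector, 6 of the 10 junction genes were called higher with SKM, 8 with OSKM and 8 with G3SKM, and 0 were called lower. All 10 stood at 0.792 RPM (Dsp) or less with empty vector, so each could pass the filter only through a factor group. A lower call was thus not possible, and for every gene but Dsp passing the filter already meant a higher call. The medians below use all 10 genes without a filter. Of all genes tested, 19.8% were called higher in SKM (11.3% lower), 18.1% in OSKM (7.48% lower) and 19.4% in G3SKM (7.46% lower). Because the 10 genes were chosen with earlier results of these data known, their counts are a description and no test of an excess. The median log2 ratio of the 10 genes was 3.37 in SKM, 3.96 in OSKM and 3.64 in G3SKM, where the medians of all genes were 0.19, 0.30 and 0.26. Centred on the median of all genes, the shares of all genes called higher and lower were 15.5% and 15.2% in SKM, 12.6% and 11.2% in OSKM, and 14% and 11% in G3SKM, and the numbers of junction genes called were the same. With the GC trend removed the same numbers were called, and the medians of the 10 genes were 2.99, 3.70 and 3.37. Cldn3, Cldn4, Cdh1, Dsp, Epcam and Esrp1 were called higher in all 3 factor groups, Cldn7 and Ocln in OSKM and G3SKM, and Cldn6 and Grhl2 stayed under the filter in every comparison. Cldn7 and Ocln were also under the filter in SKM against empty vector, so 6 genes passed it there and 8 in each of the other comparisons.

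**Figure D1:**
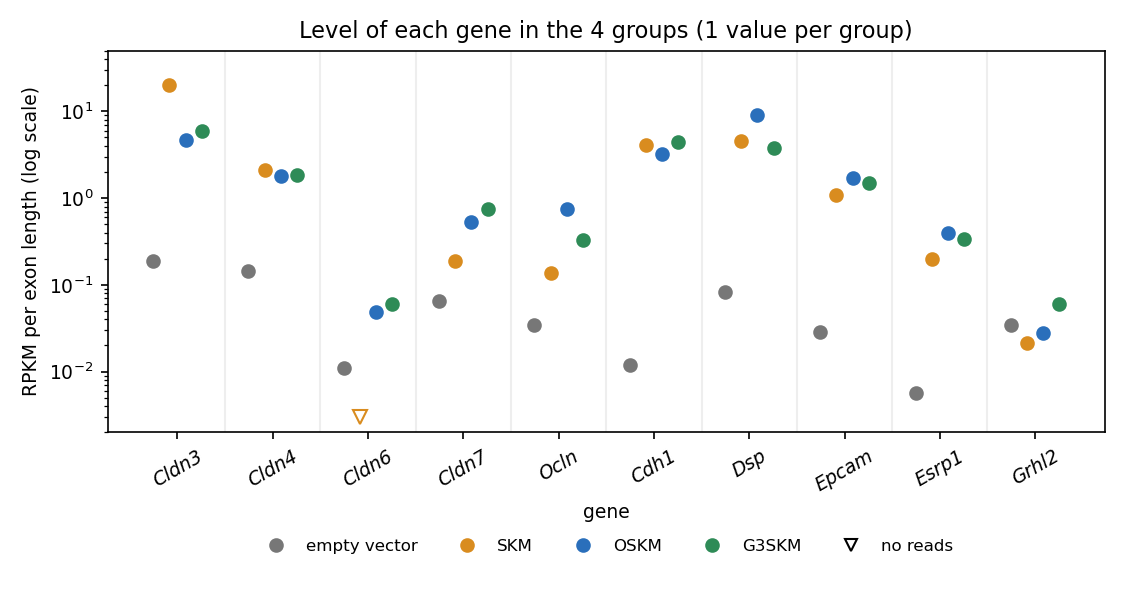
Exon-length RPKM (log axis) of the 10 genes in the 4 groups, with 1 point per group and an open triangle for no reads. The empty vector points of Cldn3, Cldn4, Cdh1, Dsp, Epcam and Esrp1 lie well below their 3 factor points, while the 4 points of Grhl2 lie close together, from 0.0215 to 0.0606.

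Cldn3 encodes a sealing claudin of many simple epithelia. Its deposited RPKM was 0.186 with empty vector, 20.3 with SKM, 4.72 with OSKM and 5.98 with G3SKM. SKM was the highest group and empty vector the lowest by far. The folds over empty vector were 109 (74.2 to 168) in SKM, 25.4 (17.1 to 39.3) in OSKM and 32.2 (21.8 to 49.6) in G3SKM. With the GC trend removed, the log2 ratio of SKM over empty vector moved from 6.26 to 5.46. Cldn4, its neighbour on chromosome 5 with a start 39.3 kb away on the other strand, encodes a claudin that limits sodium passage. Its deposited RPKM was 0.144 with empty vector, 2.11 with SKM, 1.81 with OSKM and 1.85 with G3SKM. The 3 factor groups stood close together, at folds of 14.6 (9.92 to 22.5), 12.6 (8.57 to 19.2) and 12.8 (8.77 to 19.5) over empty vector. The neighbours thus differed in how the factor groups were ordered: Cldn3 stood highest in SKM, and the counting intervals of the Cldn4 ratios between factor groups included 1. The log2 ratio of Cldn4 in SKM over empty vector moved from 3.44 to 2.73 once the GC trend was removed. An antisense gene that overlaps Cldn3, Wbscr25, had at most 0.138 RPM in any group, and the counting is not stated to use strand. Dsp, Esrp1 and Grhl2 also overlap annotated genes on the other strand, listed at 0.0431 RPM or less where they had a value.

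Cldn7 encodes a claudin found along the sides of epithelial cells, where it binds EPCAM. The deposited RPKM of Cldn7 was 0.0406 with empty vector, 0.119 with SKM, 0.336 with OSKM and 0.476 with G3SKM. The 2.94-fold difference (1.41 to 6.29) of SKM over empty vector rested on 20 reads against 14 and was under the filter, and its log2 ratio moved from 1.06 to 0.35 with the GC trend removed. OSKM was 8.29-fold (4.65 to 15.9) and G3SKM 11.7-fold (6.78 to 22) over empty vector. Cldn6, a claudin of embryonic epithelia, had 2 recovered reads with empty vector, 0 with SKM, 6 with OSKM and 10 with G3SKM. A count of 0 allows up to 3 reads, which lies close to these counts, and no fold is given for Cldn6.

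Ocln encodes occludin, the first membrane protein identified in tight junctions. Deposited values of Ocln were 0.00256 RPKM with empty vector, 0.0102 with SKM, 0.0559 with OSKM and 0.0245 with G3SKM, from 16, 31, 235 and 140 recovered reads. OSKM was the highest group, at 21.8-fold (13.2 to 38.8) over empty vector, and G3SKM stood at 9.58-fold (5.70 to 17.2). The 3.98-fold difference (2.11 to 7.8) in SKM was under the filter, with a log2 ratio of 1.47 that became 1.84 with the GC trend removed. Ocln was thus highest in OSKM, whereas Cldn3 was highest in SKM and Cldn7 in G3SKM.

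Cdh1 showed the largest fold of deposited RPKM over empty vector among the 10 genes in all 3 factor groups. In OSKM its log2 ratio with 0.1 RPM added (6.57) lay just under that of Dsp (6.61). Its deposited RPKM was 0.000807 with empty vector, from 6 recovered reads, and 0.283 in SKM, 0.218 in OSKM and 0.305 in G3SKM, from 1025, 1089 and 2074 reads. The folds were 351 (161 to 960), 270 (124 to 737) and 378 (174 to 1032), each resting on the 6 reads of empty vector. Dsp, whose product anchors keratin filaments at the desmosome, had a deposited RPKM of 0.0168 with empty vector, 0.934 with SKM, 1.84 with OSKM and 0.779 with G3SKM. OSKM was the highest group for Dsp, at 110-fold (89.0 to 137) over empty vector, beside 55.8-fold (45.1 to 69.8) in SKM and 46.5-fold (37.6 to 58.1) in G3SKM. For SKM over empty vector, removing the GC trend moved the log2 ratio of Cdh1 from 6.95 to 6.56 and that of Dsp from 5.63 to 5.31.

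Epcam encodes a surface protein of most simple epithelia. The deposited RPKM of Epcam was 0.00416 with empty vector, 0.159 with SKM, 0.246 with OSKM and 0.215 with G3SKM. The folds over empty vector were 38.2 (18 to 96.9), 59.1 (28.3 to 148) and 51.6 (24.8 to 130), each resting on the 7 reads of empty vector. The overlap of these intervals does not compare the factor groups, whose direct ratios are given below. Esrp1, the splicing regulator, followed the same order, with 0.000656, 0.0226, 0.0451 and 0.0384 RPKM from 4, 67, 185 and 214 reads. Its folds were 34.4 (12.8 to 130), 68.8 (26.4 to 255) and 58.6 (22.5 to 217). The log2 ratios of SKM over empty vector moved from 3.94 to 3.30 for Epcam and from 3.30 to 3.25 for Esrp1 with the GC trend removed. Grhl2 did not share the pattern. Grhl2 stood at a deposited RPKM of 0.00227 with empty vector, 0.00142 with SKM, 0.00184 with OSKM and 0.00400 with G3SKM, from 33, 10, 18 and 53 reads. The interval of its ratio to empty vector included 1 in SKM (0.623, 0.274 to 1.29) and in OSKM (0.811, 0.430 to 1.48), and G3SKM stood at 1.76 (1.12 to 2.80).

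**Figure D2:**
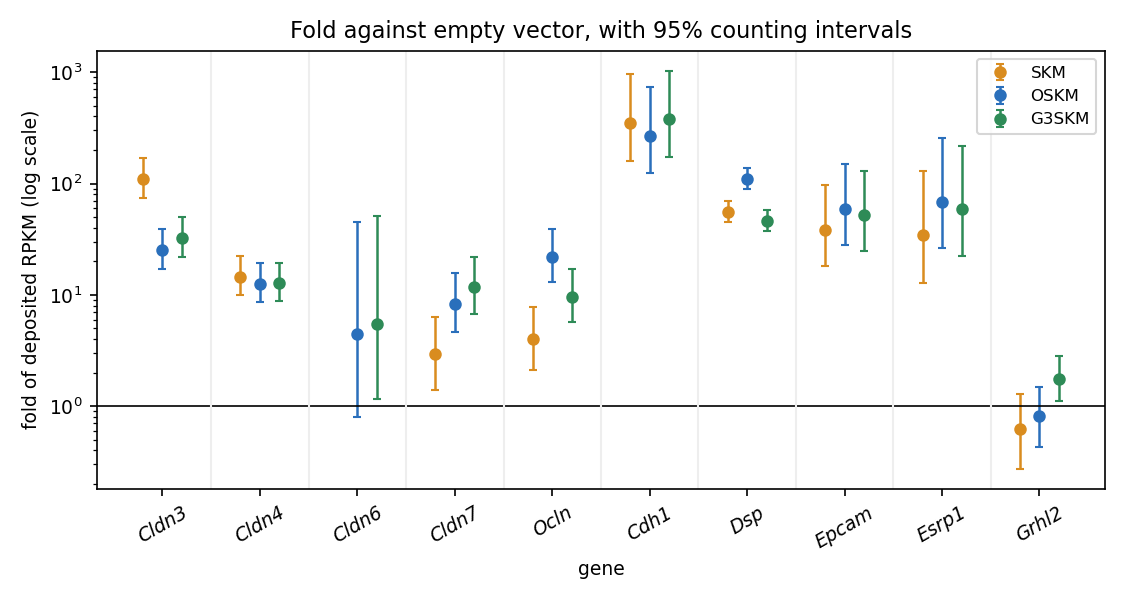
Fold of deposited RPKM over empty vector (log axis) for SKM, OSKM and G3SKM, with 95% counting intervals as bars and a line at 1. Cdh1 lies highest in all 3 factor groups, and the intervals of Grhl2 cross 1 in SKM and OSKM. Cldn6 has no reads in SKM, and no point is drawn there.

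Per exon length, the levels spread widely within each factor group. In SKM the order was Cldn3 (20.3 exon-length RPKM), Dsp (4.57), Cdh1 (4.15), Cldn4 (2.11), Epcam (1.10), Esrp1 (0.197), Cldn7 (0.190), Ocln (0.136) and Grhl2 (0.0215), with no reads for Cldn6. The 95% counting intervals of neighbours in that order overlapped for Dsp and Cdh1, for Esrp1, Cldn7 and Ocln in turn, and for Grhl2 and Cldn6. In OSKM, Dsp was first at 9.0 exon-length RPKM, ahead of Cldn3 at 4.72 and Cdh1 at 3.19. In G3SKM, Cldn3 was first at 5.98, ahead of Cdh1 at 4.47 and Dsp at 3.81. With empty vector each gene's interval overlapped that of the next, and the levels ran from 0.186 for Cldn3 down to 0.00571 for Esrp1.

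Adding OCT4 or GATA3 to SKM was the next comparison the design holds. In OSKM against SKM, 2 of the 10 genes were called higher (Ocln and Cldn7) and 1 lower (Cldn3), where 10.0% of all genes were called higher and 4.95% lower. In G3SKM against SKM the same 3 genes were called in the same directions, where 7.46% of all genes were called higher and 2.38% lower. Both comparisons use the SKM library as their control. The median log2 ratio of the 10 genes was 0.74 in OSKM and 0.57 in G3SKM, against 0.09 and 0.07 for all genes, and 0.80 and 0.57 with the GC trend removed.

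Cldn3 was 4.30-fold lower (3.86 to 4.80) in OSKM than in SKM and 3.39-fold lower (3.10 to 3.71) in G3SKM. Its transcript holds 62.7% GC, and with the GC trend removed its log2 ratio moved from -2.09 to -1.46 in OSKM and from -1.75 to -1.08 in G3SKM, still past the threshold of 1 in size. Cldn7 was 2.82-fold higher (1.71 to 4.87) in OSKM and 3.99-fold higher (2.49 to 6.72) in G3SKM. With the trend removed its log2 ratios grew from 1.28 to 1.74 and from 1.75 to 2.21. Ocln, whose transcript holds 44.1% GC, was 5.48-fold higher (3.76 to 8.25) in OSKM and 2.40-fold higher (1.62 to 3.67) in G3SKM. Removing the trend lowered the Ocln log2 ratio from 2.27 to 1.72 in OSKM, and from 1.13 to 0.63 in G3SKM, where the call was lost.

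Of the other 7 genes, Cldn6 and Grhl2 were under the filter, and 5 passed it but not the threshold. Grhl2 had 53 reads in G3SKM against 10 in SKM, a ratio of 2.82 (1.42 to 6.22), which was not called because both groups were under 1 RPM. Dsp was 1.97-fold (1.88 to 2.06) and Esrp1 2.00-fold (1.5 to 2.68) of SKM in OSKM, and their log2 ratios of 0.98 and 0.94 lay just under 1. Without the GC trend they were 0.98 and 0.69. In G3SKM, Dsp was 0.833-fold (0.792 to 0.878) of SKM and Esrp1 1.70-fold (1.29 to 2.27). Cdh1 was 0.768-fold (0.705 to 0.838) of SKM in OSKM and 1.08-fold (0.999 to 1.16) in G3SKM. Cldn4 was 0.860-fold (0.711 to 1.04) and 0.876-fold (0.733 to 1.04), and Epcam was 1.55-fold (1.25 to 1.92) and 1.35-fold (1.10 to 1.67). The counting intervals thus included 1 for Cldn4 in both groups and for Cdh1 in G3SKM. With the GC trend removed, the log2 ratio of Cldn4 turned from -0.21 to 0.24 in OSKM and from -0.19 to 0.27 in G3SKM, so its direction against SKM depends on that step. That of Epcam moved from 0.61 to 0.91 in OSKM and from 0.42 to 0.73 in G3SKM.

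**Figure D3:**
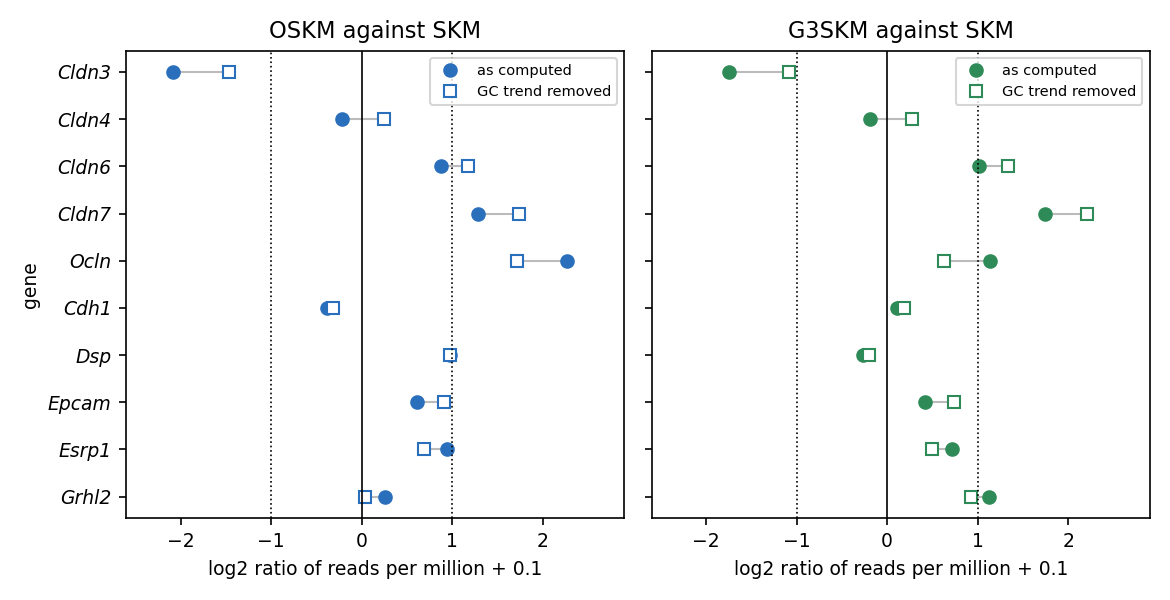
Log2 ratio of each gene in OSKM and in G3SKM against SKM, as computed (filled circles) and with the trend with transcript GC removed (open squares), with dotted lines at the threshold of 1 in size. Cldn3 stays beyond the line on the left in both panels, and the Ocln square lies inside the line in G3SKM.

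OSKM and G3SKM were compared with each other without the SKM library. Ocln and Dsp, 2 of the 10 genes, were called higher in OSKM and 0 in G3SKM, where 4.55% of all genes were called higher in OSKM and 4.25% lower. Ocln was 2.28-fold (1.84 to 2.83) and Dsp 2.36-fold (2.27 to 2.46) higher in OSKM than in G3SKM. Sox2, Klf4 and Myc were also higher in OSKM than in G3SKM, so these groups differ in more than OCT4 and GATA3. In the other direction Cdh1 was 0.713-fold (0.662 to 0.768), Cldn7 0.706-fold (0.530 to 0.935) and Cldn3 0.790-fold (0.700 to 0.887) in OSKM, differences under the threshold whose counting intervals excluded 1. Grhl2 had the lowest ratio, 0.461 (0.254 to 0.800), from 18 reads against 53, and was under the filter. The intervals of Cldn4 (0.982, 0.831 to 1.16), Epcam (1.14, 0.969 to 1.34) and Esrp1 (1.17, 0.959 to 1.44) included 1. The median log2 ratio of the 10 genes was -0.08, and that of all genes was 0.03.

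E-cadherin was set beside 3 other cadherins of these cells. Cdh2, the N-cadherin gene, was at 12.5 exon-length RPKM with empty vector and at 5.35, 5.45 and 4.59 in SKM, OSKM and G3SKM. Cdh11, a cadherin of mesenchymal cells, was at 35.6 with empty vector and at 6.45, 9.64 and 9.07 in the factor groups. Cdh3, the P-cadherin gene, was at 10.2 with empty vector, 8.61 with SKM, 2.62 with OSKM and 3.96 with G3SKM. Cdh11 and Cdh2 were called lower than with empty vector in all 3 factor groups, and Cdh3 in OSKM and G3SKM. With the GC trend removed, the log2 ratio of Cdh2 in SKM moved from -1.22 to -0.96, and that call was lost. Of the summed level of these 4 genes, Cdh1 made up 0.0202% with empty vector, 16.9% with SKM, 15.2% with OSKM and 20.2% with G3SKM. The other 3 cadherins were thus still measured beside Cdh1, and Cdh11 kept a higher exon-length level than Cdh1 in each factor group.

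**Figure D4:**
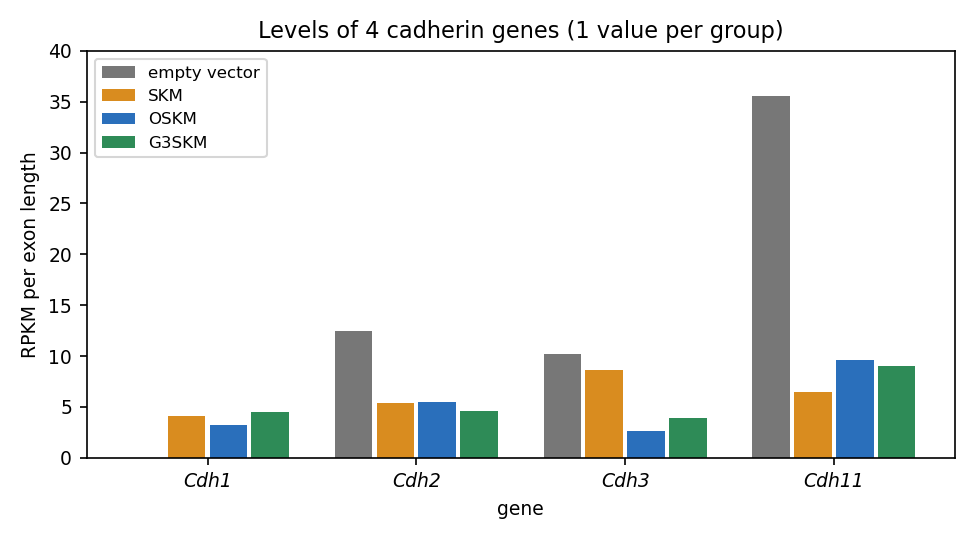
Exon-length RPKM of 4 cadherin genes in the 4 groups, with 1 bar per group. Cdh1 is at 0.0118 with empty vector and at 3.19 to 4.47 in the factor groups, where Cdh11 is at 6.45 to 9.64.

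Among 20 claudin genes, Cldn12, which fibroblasts express, made up 97.1% of the summed exon-length level with empty vector. Its share was 47.4% in SKM, 78.9% in OSKM and 76.6% in G3SKM. Cldn3 made up 0.412% with empty vector, 42.7% with SKM, 9.0% with OSKM and 12.3% with G3SKM. The sum itself ran only from 45.1 to 52.5 exon-length RPKM over the 4 groups. Cldn4 stayed at 4.43% or less of the sum and Cldn7 at 1.57% or less.

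Genes of the same structures and of their control were then described from lists, also chosen with earlier results of these data known. The lists held 82 names, of which 80 had values. Of these, 64 passed the filter in SKM against empty vector, and 35 were called higher and 9 lower. In OSKM, 66 passed, 35 higher and 10 lower, and in G3SKM 64 passed, 32 higher and 11 lower. These counts, and those of each list below against empty vector, stand beside the shares over all genes tested. The shares were 19.8% higher and 11.3% lower in SKM, 18.1% and 7.48% in OSKM, and 19.4% and 7.46% in G3SKM. In the desmosome list, 7 of 8 genes were higher than with empty vector in each factor group, as Dsp was, and 1, the plakophilin Pkp2, was lower. In OSKM against SKM, where Dsp stood at 1.97-fold, 0 of the 8 genes were called higher and 3 lower (Ppl, Evpl and Pkp1). Over all genes tested, 10.0% were called higher and 4.95% lower in that comparison. The median log2 ratio of the list there was -0.35. With the GC trend removed, the log2 ratio of Ppl moved from -1.63 to -1.33 and that of Pkp1 from -1.04 to -0.79. Pkp1 and Evpl thus lost their calls with that step, and Ppl kept its own. Against empty vector the median log2 ratio of the list was 3.19 in SKM, 2.97 in OSKM and 3.52 in G3SKM. Evpl, which encodes the linker envoplakin, was at 0.0211 deposited RPKM with empty vector, 1.74 with SKM, 0.739 with OSKM and 0.831 with G3SKM. Evpl was lower than SKM in both other factor groups, but its log2 ratios of -1.23 and -1.06 became -0.61 and -0.40 with the GC trend removed. Pkp2 was at 0.657 deposited RPKM with empty vector and at 0.232, 0.227 and 0.187 in the factor groups.

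Of the 20 other tight junction genes with values, 7 were higher and 1 lower in SKM, 8 and 1 in OSKM, and 8 and 1 in G3SKM, with median log2 ratios of 1.07, 0.88 and 1.3. Marveld2, the gene of tricellulin, stood at 33.1-fold (17.5 to 70.4), 34.8-fold (18.6 to 73.5) and 30.5-fold (16.4 to 64.4) over empty vector. The scaffold gene Cgnl1 was the 1 lower gene each time, at 0.307 deposited RPKM with empty vector and 0.145, 0.108 and 0.140 in the factor groups. Cldn11 and Cldn1 were called higher in OSKM than in either SKM or G3SKM. Cldn11 had 6 recovered reads with empty vector, 10 with SKM, 256 with OSKM and 25 with G3SKM. Cldn1 had 58, 16, 335 and 49. These claudins shared with Ocln the highest level in OSKM.

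Of the 12 genes of the adherens junction list, all of which passed the filter, 2 were higher and 3 lower in SKM, 2 and 4 in OSKM, and 2 and 4 in G3SKM. The 2 higher genes are a share near that over all genes. Its median log2 ratios were -0.48, -0.42 and -0.74. Nectin4, a nectin of epithelia, was 9.09-fold (6.36 to 13.3), 7.91-fold (5.57 to 11.5) and 6.34-fold (4.48 to 9.20) over empty vector, and Afdn, its linker to actin, was the other gene called higher. With the GC trend removed, the log2 ratio of Afdn in SKM moved from 1.115 to 0.95, and that call was lost. The catenin genes Ctnna1, Ctnnb1, Ctnnd1 and Jup were called in no comparison with empty vector. Their levels with empty vector, from 8.39 exon-length RPKM for Jup to 90.0 for Ctnnb1, were far above that of Cdh1. Of the 10 polarity genes with values, 5 were higher and 1 lower in SKM, 4 and 0 in OSKM, and 3 and 0 in G3SKM, with Crb3 and Pard6b among the higher genes each time. Removing the GC trend moved the log2 ratio of Llgl2 from 1.67 to 0.87 in SKM and from 1.08 to 0.93 in G3SKM. That of Mpp5, the lower gene in SKM, moved from -1.26 to -0.60. Llgl2 and Mpp5 thus lost these calls with that step. Crb3, an apical membrane protein gene, was at 0.0224 deposited RPKM with empty vector, 0.174 with SKM, 0.379 with OSKM and 0.175 with G3SKM.

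**Figure D5:**
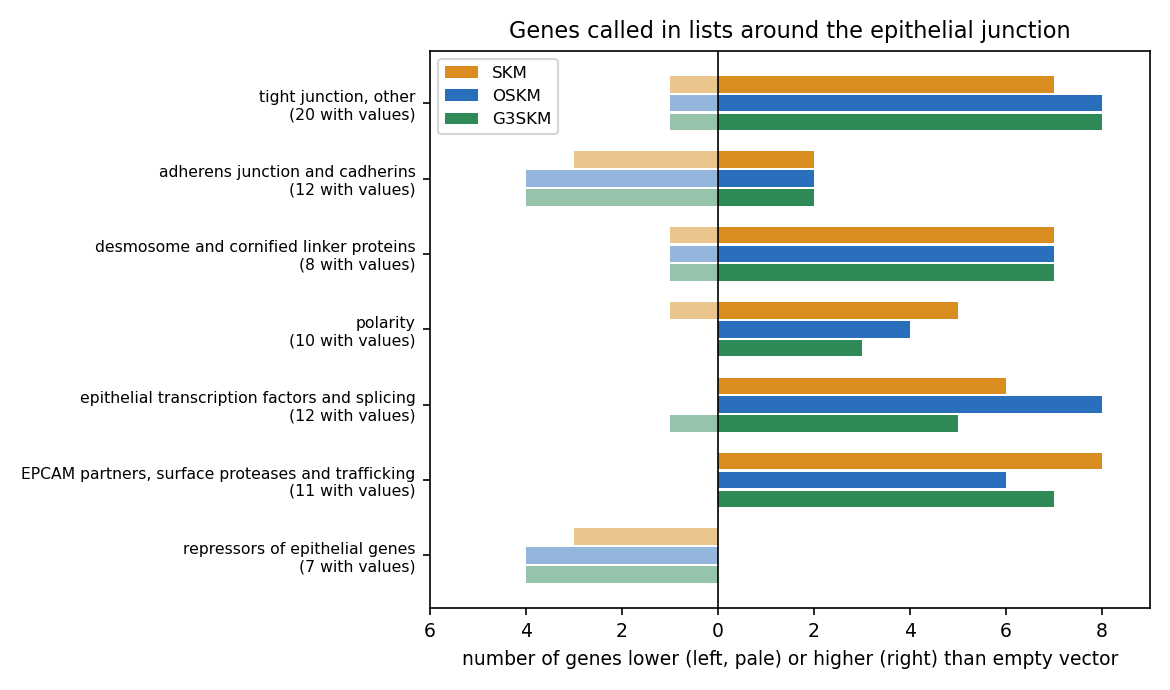
Number of genes called lower (left, pale) or higher (right) than empty vector in each of 7 lists, for SKM, OSKM and G3SKM. The desmosome list has 7 higher genes in each factor group, and the list of repressors has none higher and 3, 4 and 4 lower.

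Of 12 epithelial transcription factor and splicing genes, 6 were higher and 0 lower in SKM, 8 and 0 in OSKM, and 5 and 1 in G3SKM. Grhl1 and Grhl3, the relatives of Grhl2, were called higher in all 3. Grhl1 was at 0.00638 deposited RPKM with empty vector and at 0.0993, 0.0982 and 0.104 in the factor groups, and Grhl3 was at 0.00312 and at 0.119, 0.0556 and 0.0580. Grhl2, in contrast, had at most 0.522 RPM in any group. Esrp2, the paralogue of Esrp1, was also called higher in all 3 and stood at 0.552 exon-length RPKM with empty vector and 2.22, 2.50 and 2.19 in the factor groups, above Esrp1 in each.

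The transcription factor gene Ehf was high in OSKM alone among the 4 groups, with 2 recovered reads with empty vector, 0 with SKM, 513 with OSKM and 12 with G3SKM. Taking 3 reads as the floor for SKM, Ehf was at least 124-fold higher in OSKM. Trp63, which marks basal epidermal cells, had 8, 9, 91 and 21 reads, and Tfap2a had 160, 71, 373 and 150. Elf3 was 50-fold (16.5 to 248) over empty vector in SKM, from 73 reads against 3.

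Of 11 genes of EPCAM partners, surface proteases and membrane traffic, 8 were higher with SKM, 6 with OSKM and 7 with G3SKM, and 0 were lower. St14, the gene of the protease matriptase, was at 0.0458 deposited RPKM with empty vector and 0.388, 0.303 and 0.264 in the factor groups. Tspan8, a tetraspanin gene, had 2, 48, 117 and 345 reads and was called higher in G3SKM than in SKM (3.83-fold, 2.82 to 5.29).

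None of the 7 repressor genes was called higher in any factor group against empty vector, and 3 were lower in SKM, 4 in OSKM and 4 in G3SKM. Snai2, the gene of SLUG, was at 9.36 deposited RPKM with empty vector, 1.92 with SKM, 3.42 with OSKM and 2.48 with G3SKM. Snai1 was at 30.3, 16.6, 6.73 and 8.01 in the same order, and was called lower than SKM in OSKM and G3SKM. With the GC trend removed, these log2 ratios of -1.3 and -1.05 became -0.68 and -0.39. Twist2 was called lower in all 3 groups, at 1.22 deposited RPKM with empty vector and 0.556, 0.346 and 0.447. Zeb2 was also called lower in all 3, while Twist1, Zeb1 and Tcf4 were called in none.

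Among 11867 genes, the profile over the 4 groups most like the median profile of the 10 genes was that of Got1l1, with a largest distance of 0.129 log2 units in any group. Its deposited RPKM was 0.0177 with empty vector and 0.222, 0.308 and 0.244 in the factor groups. Mapt (0.163), Rundc3b (0.176), Dsc2 (0.226) and Rtn1 (0.257) followed. Mapt encodes tau, a microtubule protein best known from neurons. Dsc2 is a desmosomal cadherin gene, and its deposited RPKM was 0.0725 with empty vector, 0.688 with SKM, 0.780 with OSKM and 0.896 with G3SKM. Of the 10 genes themselves, Esrp1 (0.289) and Cldn4 (0.39) lay nearest to their common median, and Grhl2 (2.7) lay farthest. With 4 values per gene, likeness is a description of order and size alone.

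Some keratin genes of epithelia were higher in the factor groups beside the junction genes, and others were not. Krt14 was at 0.164 exon-length RPKM with empty vector, 84.3 with SKM, 41.1 with OSKM and 56.9 with G3SKM, and Krt8 was at 0.361, 43.9, 24.6 and 31.5. The summed level of the 9 keratinocyte markers was 8.19, 106, 55.3 and 69.8, and that of the 4 simple epithelial markers was 7.49, 58.3, 35.0 and 41.7. Krt14 and Krt8 made up most of these sums in the factor groups. Krt18, the partner of Krt8, was at 2.54, 4.25, 0.837 and 3.39, lower in OSKM than with empty vector. Krt7 (1.03, 1.06, 0.738 and 0.784) and Krt10 (1.05, 1.02, 0.956 and 1.11) were no more than slightly above empty vector in any factor group, and Ivl, the involucrin gene, was at 0.17, 0.127, 0.120 and 0.197. Krt5, the partner of Krt14 in basal keratinocytes, was low but above empty vector in the factor groups, at 0.0123, 0.312, 0.177 and 0.265. Krt1 (0, 0.290, 0.862 and 0.156) and Krt15 (0, 0.302, 0.0377 and 0.0610) had no reads with empty vector. Lor was at 0.314, 2.44, 0.482 and 1.41, Sfn at 6.47, 16.8, 11.4 and 9.68, and Krt19 at 3.57, 9.03, 8.88 and 6.10. The 7 markers of pluripotent cells summed to 0.127 with empty vector, 0.989 with SKM, 9.66 with OSKM and 1.03 with G3SKM, and Pou5f1, a delivered factor, made up 7.81 of the sum in OSKM. The part of other cell types in the levels of the junction genes was not tested.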

How the data were processed

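Per the submitters' processing notes, reads were aligned with TopHat 1.3.0 to mouse build mm9. Per the labels' protocols, cDNA was amplified by PCR before a DNA library kit was used. No source used here gives the counter, the annotation, the use of strand or how 2 replicates became 1 value. The authors deposited RPKM values in 3 tables, in which 0.001 was read as 0. Their deposited log2 fold changes and p-values were not used.

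Deposited RPKM times the gene span in GENCODE M21 gave reads scaled to depth (RPM) for 25103 of 27597 genes (91.0%). Counts were recovered from the spacing of low values. Between 62.9% and 63.5% of the values tested in each group came out within 0.05 of whole reads, so spans are not exact for all genes, and no count model was used. From the deposited RPKM, log2 ratios were computed with 0.1 RPM added. Genes at 1 RPM or more in 1 of the groups compared were tested, and a log2 ratio of 1 or more in size was called. The trend with transcript GC was removed in 20 bins. Depth recovery and calls were tested on simulated data with counting noise only. The changes were planted in genes above the empty vector level of every junction gene, so that test does not cover calls of genes as low as these. Python 3.11.15, pandas 2.3.3, numpy 2.4.6, SciPy 1.17.1 and matplotlib 3.10.9 were used.

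The 10 genes and the lists around them were chosen with earlier results of these data known. The text names all 10 genes. From each list it draws on the up to 3 genes called higher and 3 called lower by the largest log2 ratio in each comparison; Esrp2, Zeb1, Twist1, Tcf4, Cldn12 and the catenins were added after their values were seen. It also names the 5 protein-coding genes, at 5 RPM or more in a group, nearest to the median profile. Values of 2 of the listed genes are not reported here. Of the listed names, Cldn8 had no value, and Pals1 is listed under its older name Mpp5. The alternatives were other pseudocounts, filters, thresholds, scales and normalizations, and protein-coding genes alone.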

Additional observations from a re-analysis of the deposited data

How the results depend on the processing

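No paired analysis was possible because each group has 1 deposited value. Of the counts and medians recomputed, 134 stayed within 1.5 times or within counting error and 40 moved beyond that, and no called value was reversed. Of the log2 ratios of single genes, 2 changed sign, both of Cldn4 with the GC trend removed: from -0.21 to 0.24 in OSKM against SKM and from -0.19 to 0.27 in G3SKM against SKM. With 0.01 RPM added, the median log2 ratio of the 10 genes in SKM against empty vector was 4.29. With 1 RPM added, the medians against empty vector were 1.40, 1.81 and 1.69 for SKM, OSKM and G3SKM. The genes called higher then numbered 1 in OSKM against SKM, 0 in G3SKM against SKM and 1 in OSKM against G3SKM. Over all genes tested, the shares called higher there were 6.85%, 4.34% and 2.96%.

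With a filter at 5 RPM, 3 genes were called higher against empty vector in each factor group, 0 in OSKM and 0 in G3SKM against SKM, and 1 in OSKM against G3SKM. The shares of all genes called higher with that filter were 16.5%, 14.5% and 15.1% in SKM, OSKM and G3SKM against empty vector. They were 7.79% in OSKM and 5.84% in G3SKM against SKM, and 2.98% in OSKM against G3SKM. Without a filter, 4 were higher in G3SKM against SKM, beside 8.6% of all genes, with Cldn6 and Grhl2 being the added ones. With a log2 threshold of 2, 1 gene was higher in OSKM against SKM, 0 were higher and 0 lower in G3SKM against SKM, and 0 were higher in OSKM against G3SKM. At that threshold 2.27% of all genes were higher in OSKM against SKM, and 1.5% in OSKM against G3SKM. In G3SKM against SKM, 0.435% were higher and 0.123% lower. With the GC trend removed, 1 gene was higher in G3SKM against SKM, beside 2.7% of all genes.

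On deposited RPKM + 1, which compresses genes of long span, 2, 3 and 2 genes were higher in SKM, OSKM and G3SKM against empty vector, with medians of 0.16, 0.30 and 0.33. On that scale 0 were higher in OSKM and in G3SKM against SKM (medians 0.03 and 0.02) and 0 in OSKM against G3SKM. The shares of all genes called higher on it were 8.88%, 4.79% and 7.06% in SKM, OSKM and G3SKM against empty vector. They were 2.55% in OSKM and 4.43% in G3SKM against SKM, and 0.724% in OSKM against G3SKM. On exon-length RPKM + 1, 5 genes were higher in OSKM and 5 in G3SKM against empty vector, and the medians were 0.64, 1.03 and 1.00 for SKM, OSKM and G3SKM. On that scale 0 were higher in OSKM and in G3SKM against SKM (medians 0.14 and 0.09), and 1 in OSKM against G3SKM. The shares of all genes called higher on exon length were 8.88% in OSKM and 10.2% in G3SKM against empty vector. They were 4% in OSKM and 4.08% in G3SKM against SKM, and 1.51% in OSKM against G3SKM. For single genes, 533 values kept their side of the threshold, 63 lost a call and 4 gained one.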

Other observations

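Macrophage genes were lower in the factor groups, where the junction genes were higher. The summed exon-length RPKM of 5 macrophage markers was 87.4 with empty vector and 10.9, 4.66 and 9.04 in SKM, OSKM and G3SKM. Lyz2, the lysozyme gene of macrophages, was at 62.1 with empty vector and at 5.18, 1.05 and 4.16 in the factor groups. The 3 endothelial markers summed to 0.364 or less in every group. Among trophoblast genes, Hand1 was at 0.0270 exon-length RPKM with empty vector and at 11.1, 8.76 and 6.54 in SKM, OSKM and G3SKM, while Elf5 stayed at 0.154 or less and Eomes at 0.0966 or less.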
